A study of Mus musculus with 6 samples.

Results

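Ferroptosis is a form of cell death driven by iron-dependent peroxidation of polyunsaturated fatty acids in membrane phospholipids. In sorted microglia of mice with a conditional knockout of the autophagy gene Atg7, 10 genes of its lipid-remodelling and defence arms were followed: 4 that supply or oxidise membrane lipids (Acsl4, Lpcat3, Por, Acsl3), the 2 subunits of the cystine importer (Slc7a11, Slc3a2), the lipid peroxidase Gpx4, and 3 defences that work beside it (Aifm2, Gch1, Dhodh). They were selected by gene symbol, as 10 of the 55487 distinct gene identifiers in the count table. All 10 were among the 15787 genes that passed the filter on low counts and were tested.

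Acsl4 and Lpcat3 place polyunsaturated chains into phospholipids, and Por can pass electrons that start their oxidation. Imported cystine feeds glutathione, which Gpx4 uses to reduce lipid hydroperoxides. Aifm2 (FSP1), Dhodh and Gch1 maintain radical-trapping quinones or tetrahydrobiopterin independently of Gpx4. Microglia are the resident macrophages of the brain.

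The study compared microglia of Atg7-fl/fl;Cx3cr1-CreERT2 mice, called Atg7 knockouts here, with those of Atg7-fl/fl mice, called controls; the question was what loss of Atg7 does to microglia. There were 3 female mice per group, aged 20 months, and the series design text describes the controls as littermates. All 6 mice carried the floxed alleles. Cre was carried only by the knockouts and is expressed from the Cx3cr1 locus, so deletion and the Cre allele cannot be told apart, and the labels used here do not give a tamoxifen schedule. Live CD45-intermediate, CD11b-positive cells were sorted from cortex, and bulk RNA was sequenced after low-input cDNA amplification.

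Libraries held 33129233, 3789208 and 21282335 reads in knockouts 1, 2 and 3, and 39389527, 38798703 and 1254380 reads in controls 1, 2 and 3. Knockout 2 and control 3 were therefore shallow, and 1 read in control 3 was worth 0.786 CPM (reads scaled to library size, here with TMM factors). Atg7 averaged 25.1 ± 1.39 CPM in knockouts and 62.9 ± 5.46 CPM in controls (SD, n = 3 each), a log2 difference of -1.34 (SE 0.19; edgeR quasi-likelihood test, adjusted p = 0.0147). That call was lost when any 1 library other than control 3 was left out (edgeR adjusted p = 0.0527 to 0.135), while its log2 fold change stayed between -1.41 and -1.29 whichever of the 6 libraries was left out. Cx3cr1, the locus of the Cre allele, averaged 4710 ± 791 CPM in knockouts and 10620 ± 907 CPM in controls (log2 fold change -1.17, SE 0.13; edgeR adjusted p = 0.00126).

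The 12 microglial markers examined were all expressed and summed to 55729 to 61406 CPM in knockouts and 68129 to 75096 CPM in controls. These sums include Cx3cr1, the locus of the Cre allele. Of the 12, 11 had a log2 fold change below 0, with a median of -0.22. At an unadjusted edgeR p under 0.05, 4 were lower, Cx3cr1 included, against 1.98% of all genes. Border-associated macrophage markers summed to 613 to 669 CPM in knockouts and 416 to 564 CPM in controls, most of it Stab1 (401 to 548 CPM over the 6 libraries), and all 10 were above 0 on the log2 fold change scale. Their median was 2.38, and 4 of 10 were higher at an unadjusted edgeR p under 0.05, against 2.34% of all genes. Without Stab1 the other 9 summed to 258, 171 and 64.4 CPM in knockouts 1, 2 and 3, against 15.5, 40.3 and 85.6 CPM in controls 1, 2 and 3, a sum added after the values were seen. Neutrophil markers summed to 2430, 1038 and 619 CPM in knockouts 1, 2 and 3, against 582, 821 and 990 CPM in controls 1, 2 and 3, and 8 of the 9 tested had a log2 fold change above 0. Of these sums, Csf3r alone made up 430, 384 and 476 CPM in the knockouts and 537, 458 and 509 CPM in the controls. Monocyte markers summed to 145, 66.0 and 21.5 CPM in the same knockouts, against 10.0, 38.0 and 47.9 CPM in the controls, with 5 of the 6 tested above 0. Astrocyte markers summed to 277 to 372 CPM in knockouts and 299 to 336 CPM in controls, most of it Slc1a3 (250 to 326 CPM). Oligodendrocyte markers summed to 211 to 236 CPM in knockouts and 215 to 256 CPM in controls, most of it Cnp (116 to 156 CPM). Endothelial markers summed to 42.5 to 57.4 CPM in knockouts and 38.3 to 99.8 CPM in controls, most of it Pecam1, with Slco1a4 at 0 in all 6 libraries. Lymphocyte markers summed to 0.279 to 2.08 CPM in knockouts and 0 to 0.672 CPM in controls, with Ms4a1 at 0 in all 6, and neuronal markers to 1.30 to 5.07 CPM in knockouts and 2.45 to 6.29 CPM in controls. The part these cells play in the values below was not tested, and in bulk RNA fewer cells of a type and less RNA per cell cannot be told apart.

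None of the 10 genes passed the test. With edgeR, 7 of the 15787 genes tested (0.0443%) had an adjusted p under 0.05, 0.0317% higher and 0.0127% lower in knockouts, and 0 of these 10 did. Their adjusted p was 0.999 in each case. At an unadjusted p under 0.05 the counts were 0 of 10, against 4.32% of all genes tested. DESeq2 and limma voom also called 0 of the 10 after adjustment, against 0.526% and 0.095% of all genes. Their counts at an unadjusted p under 0.05 were 1 (Slc7a11) with DESeq2 and 2 (Slc7a11, Aifm2) with limma voom, against 5.09% and 9.37% of all genes. Of the 10, 5 had a log2 fold change above 0, against 52.5% of all genes, and their median was 0.01, against 0.02 over all genes tested. Groups did not overlap for 1 of the 10, Slc7a11, which was higher in knockouts, against 11.1% of all genes, 6.59% higher and 4.47% lower.

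**Figure D1:**
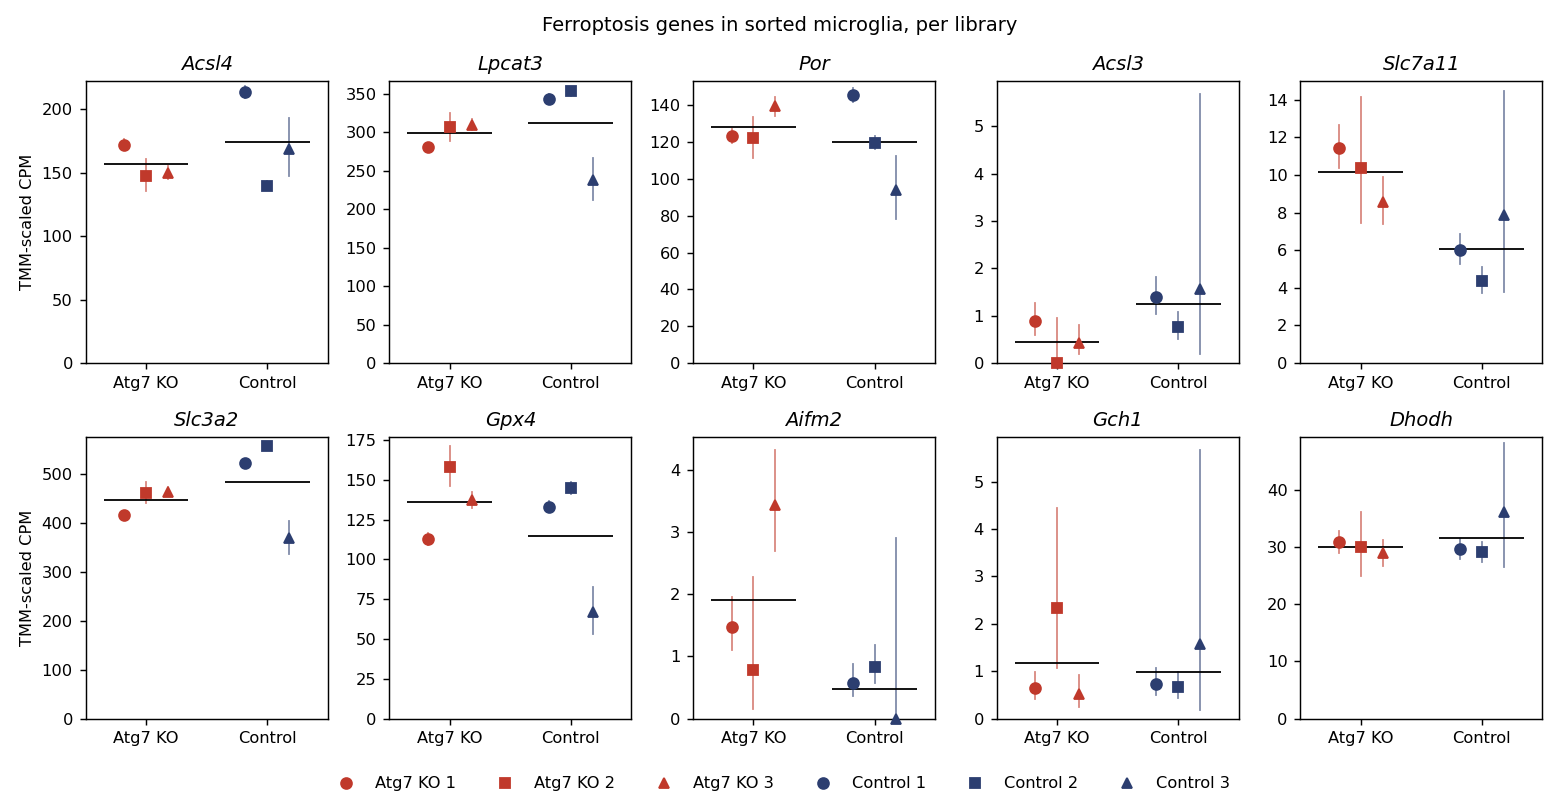
Levels of the 10 genes in each library, in TMM-scaled CPM, with Atg7 knockouts left of controls; each symbol is 1 mouse. Slc7a11 is the 1 gene whose knockouts (8.55 to 11.5 CPM) all lie above its controls (4.38 to 7.86 CPM).

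None of the 4 genes of lipid remodelling passed the test, and 3 of them, Acsl4, Lpcat3 and Por, had intervals within 0.53 of 0 on the log2 scale. Acsl4 (ENSMUSG00000031278, chromosome X), which activates arachidonic and adrenic acid, had 172, 148 and 150 CPM in knockouts 1, 2 and 3, against 213, 140 and 169 CPM in controls 1, 2 and 3. The knockouts lay within the range of the controls. Its log2 fold change was -0.15 (SE 0.18; 95% interval -0.53 to 0.22).

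Lpcat3 (ENSMUSG00000004270, chromosome 6), which esterifies those chains into lysophospholipids, had 281, 306 and 310 CPM in knockouts, against 343, 353 and 238 CPM in controls. Controls 1 and 2 lay above every knockout and control 3 below them. Its log2 fold change was -0.06 (SE 0.17; 95% interval -0.42 to 0.29). Of its exonic bases, 10.2% are shared with Emg1 on the opposite strand, and no source used here says whether reads were counted by strand.

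Por (ENSMUSG00000005514, chromosome 5), the cytochrome P450 oxidoreductase, had 123, 122 and 139 CPM in knockouts, against 146, 120 and 94.3 CPM in controls. The knockouts again lay inside the control range, with a log2 fold change of 0.09 (SE 0.18; 95% interval -0.29 to 0.47).

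Acsl3 (ENSMUSG00000032883, chromosome 1), which activates monounsaturated fatty acids and is known for limiting ferroptosis, was close to the detection limit. It had 30, 0 and 9 reads in knockouts, against 53, 28 and 2 reads in controls. These were 0.888, 0 and 0.418 CPM in knockouts, against 1.39, 0.753 and 1.57 CPM in controls. Acsl3 in knockout 2, with 0 reads, had an exact 95% Poisson interval of 0 to 0.958 CPM. The 95% interval of its log2 fold change, -3.39 to 0.98 around -1.21, spans a large range in both directions, and the fold change was -2.19 without knockout 1. Acsl3 shares 5.60% of its exonic bases with Utp14b on the same strand.

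The balance of Acsl4 to Acsl3 was taken within each library. This removes library size where both genes had reads, but not in knockout 2, which had 0 Acsl3 reads. Knockouts 1 and 3 had 194 and 359 Acsl4 reads per Acsl3 read, and knockout 2 had 190, with its 0 Acsl3 reads set to a floor of 3. That value is not a strict lower bound. The Poisson interval of Acsl3 there reaches 0.958 CPM, above the floor of 0.779 CPM. Controls had 153, 186 and 108, the last from 2 Acsl3 reads, under the floor. With that floor all knockouts lay above all controls, though knockout 2 and control 2 were nearly level. A larger value in place of 0 could put knockout 2 below control 2, so this order rests on the floor. The mean log2 ratio was 7.88 ± 0.52 in knockouts and 7.18 ± 0.40 in controls (SD, n = 3 each), a difference of 0.70. The two-sided exact permutation p was 0.1, the smallest that 3 against 3 can give. The difference was 0.40 without knockout 3, 1.38 with 1 read added to each count and 1.56 with 0.5 reads in place of 0.

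The cystine importer held the 1 member whose groups did not overlap, though it was not called. Slc7a11 (xCT; ENSMUSG00000027737, chromosome 3), the transporting subunit, averaged 10.1 ± 1.47 CPM in knockouts and 6.09 ± 1.74 CPM in controls (SD, n = 3 each). Single libraries had 11.5, 10.4 and 8.55 CPM in knockouts, against 6.02, 4.38 and 7.86 CPM in controls. All knockouts lay above all controls, but the value of control 3 rests on 10 reads, with an exact 95% Poisson interval of 3.77 to 14.5 CPM that covers counting error only and includes every knockout value.

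The log2 fold change of Slc7a11 was 0.80 (SE 0.40; 95% interval -0.05 to 1.64), a fold of 1.74. The adjusted p was 0.999 with edgeR, 0.943 with DESeq2 and 0.284 with limma voom. The fold change stayed between 0.59 and 0.95 on the log2 scale whichever of the 6 libraries was left out. Among knockouts its CPM had the order of the neutrophil sum, the monocyte sum and the border-associated macrophage sum without Stab1 (highest in knockout 1, lowest in knockout 3), and among controls it did not. The part of those cells in its value was not tested.

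Slc3a2 (4F2hc; ENSMUSG00000010095, chromosome 19), the heavy chain that Slc7a11 shares with other amino acid transporters, had 416, 461 and 463 CPM in knockouts, against 521, 557 and 369 CPM in controls. Controls 1 and 2 lay above the knockouts and control 3 below them. The fitted log2 fold change was -0.11 (SE 0.16; 95% interval -0.46 to 0.23). Without control 3 it was -0.28 (SE 0.13; edgeR adjusted p = 0.681). In that fit 2 of the 10, Slc7a11 and Slc3a2, had an unadjusted p under 0.05, against 7.15% of all genes.

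Set against Slc3a2 in the same library, Slc7a11 had 2.76, 2.25 and 1.85 reads per 100 Slc3a2 reads in knockouts, against 1.16, 0.787 and 2.13 in controls. Control 3 lay above knockout 3, so the groups overlapped. The mean log2 ratio, with 0.5 reads added to each count, was -5.46 ± 0.29 in knockouts and -6.30 ± 0.76 in controls (SD, n = 3 each). The difference of 0.84 had a two-sided exact permutation p of 0.2. It was 0.50 without control 2 and 1.25 without control 3.

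**Figure D2:**
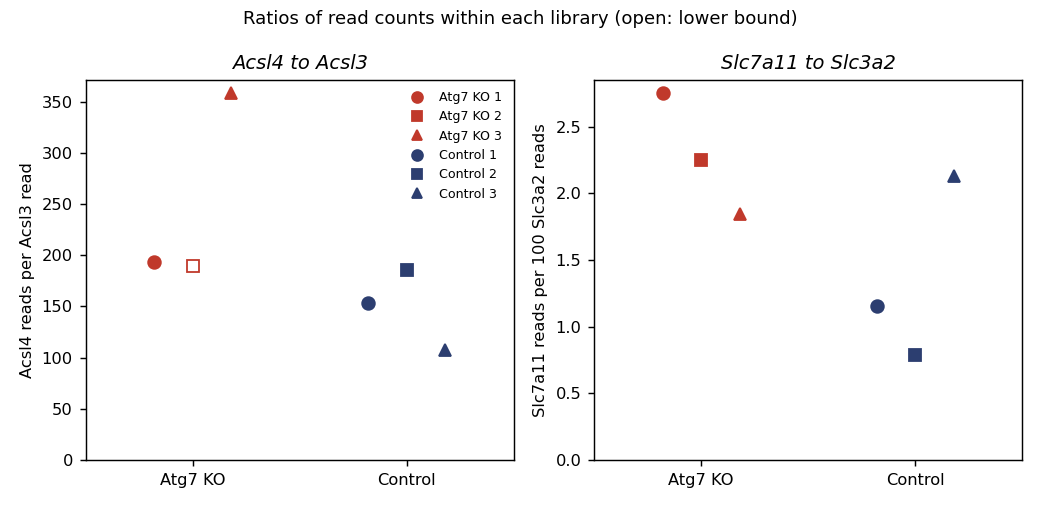
Acsl4 reads per Acsl3 read (left) and Slc7a11 reads per 100 Slc3a2 reads (right) within each library, Atg7 knockouts left of controls; each symbol is 1 mouse and the open symbol is a lower bound. Knockouts lie above controls for Acsl4 to Acsl3, with knockout 2 at its floor, and overlap with control 3 for Slc7a11 to Slc3a2.

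The promoters of the importer's subunits are shown because Slc7a11 is a known target of ATF4 and of NRF2 (Nfe2l2). These are the 250 bases before the start in RefSeq (GRCm38.p6), with matches to the C/EBP-ATF response element, TGATGNAA on either strand, in capitals. The Slc7a11 window is chr3:50443614-50443863 and the Slc3a2 window chr19:8713898-8714147, both on the minus strand.
Slc7a11: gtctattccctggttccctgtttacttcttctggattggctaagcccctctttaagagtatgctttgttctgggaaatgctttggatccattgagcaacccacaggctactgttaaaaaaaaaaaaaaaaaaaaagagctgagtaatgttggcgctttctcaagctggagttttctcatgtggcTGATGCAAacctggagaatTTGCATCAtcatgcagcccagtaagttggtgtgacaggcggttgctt
Slc3a2: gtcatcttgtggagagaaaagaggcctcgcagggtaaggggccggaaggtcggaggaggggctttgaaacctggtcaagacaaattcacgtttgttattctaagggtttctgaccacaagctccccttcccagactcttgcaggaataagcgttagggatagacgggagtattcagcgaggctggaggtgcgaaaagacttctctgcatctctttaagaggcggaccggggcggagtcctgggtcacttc

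Slc7a11 held 2 matches, at -66 to -59 on the plus strand of the window and at -47 to -40 on the minus strand. At least 1 match was found in 3.45% of 32851 promoter windows and at least 2 in 0.0396%. Among the 12 windows of the 9 members with an entry, the Slc7a11 window was the 1 with a match. The core of the antioxidant response element, TGACNNNGC, was in 10.2% of all windows and in 0 of the 12. The transcripts of the factors themselves, chosen after their values were seen, had log2 fold changes of 0.06 (SE 0.23) for Atf4 and -0.06 (SE 0.15) for Nfe2l2, both with an edgeR adjusted p of 0.999. A letter match does not show binding, and whether either factor acts on Slc7a11 here was not tested.

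Gpx4 (ENSMUSG00000075706, chromosome 10), which reduces phospholipid hydroperoxides, had 113, 158 and 137 CPM in knockouts, against 133, 145 and 66.8 CPM in controls. The groups overlapped, with control 3 the lowest of the 6 (exact 95% Poisson interval 53.4 to 82.6 CPM, from 85 reads). Its log2 fold change was 0.23 (SE 0.26; 95% interval -0.34 to 0.80). It was -0.05 without control 3 and -0.024 with limma voom on all 6 libraries. Its direction thus depends on that library and on the method. Gpx4-ps2, a processed pseudogene that can share reads with it, had 21.6, 15.8 and 16.9 CPM in knockouts, against 15.9, 15.5 and 22.8 CPM in controls.

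Gpx4 is a selenoprotein: a TGA codon in its transcript is read as selenocysteine at the active site, so its synthesis needs selenium. That codon is shown because it ties Gpx4 to the selenoprotein genes examined here. It is codon 73 of 197 of a Gpx4 transcript in GENCODE M21 (GRCm38, chr10:80054722-80054754, plus strand), and stands in capitals.
Gpx4: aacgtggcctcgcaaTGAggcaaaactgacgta

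Of the defences that act beside Gpx4, Aifm2 and Gch1 were near the detection limit and Dhodh was well measured. Aifm2 (ENSMUSG00000020085, chromosome 10), which reduces coenzyme Q at membranes, had 50, 3 and 74 reads in knockouts, against 22, 31 and 0 in controls. These were 1.48, 0.779 and 3.44 CPM in knockouts, against 0.578, 0.834 and 0 CPM in controls. Aifm2 in control 3, with 0 reads, had an exact 95% Poisson interval of 0 to 2.90 CPM. Knockouts 1 and 3 lay above the controls and knockout 2 among them.

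The log2 fold change of Aifm2 was 1.68 (SE 0.88; 95% interval -0.21 to 3.56), and 0.98 without knockout 3. It shares 5.65% of its exonic bases with H2afy2 on the opposite strand. Gch1 (ENSMUSG00000037580, chromosome 14), which catalyses the first step of tetrahydrobiopterin synthesis, had 22, 9 and 11 reads in knockouts, against 28, 25 and 2 in controls. These were 0.651, 2.34 and 0.511 CPM in knockouts, against 0.736, 0.672 and 1.57 CPM in controls, with the shallow library of each group its highest. Its log2 fold change of 0.32 had a 95% interval of -1.83 to 2.46, and it was -0.58 without knockout 2.

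Dhodh (ENSMUSG00000031730, chromosome 8), a mitochondrial enzyme that reduces coenzyme Q, varied little among mice. It had 30.9, 30.1 and 29.0 CPM in knockouts, against 29.7, 29.2 and 36.1 CPM in controls. Its log2 fold change was -0.06 (SE 0.21; 95% interval -0.51 to 0.38).

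**Figure D3:**
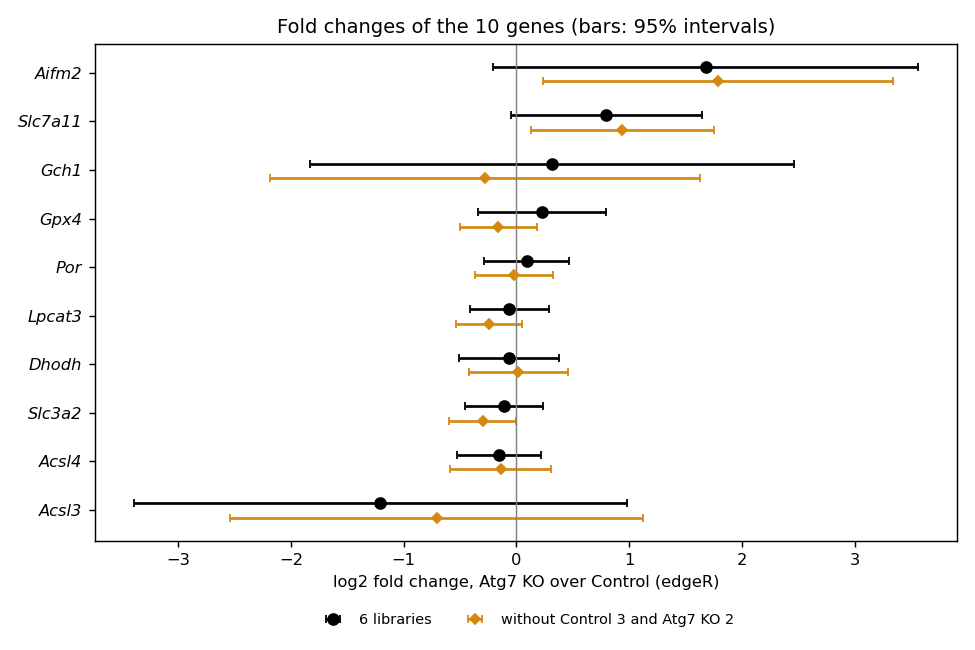
Log2 fold changes of the 10 genes, Atg7 knockout over control, with 95% intervals, from all 6 libraries and without knockout 2 and control 3. All 10 intervals from 6 libraries include 0; without the shallow libraries those of Slc7a11 (0.13 to 1.75), Aifm2 (0.23 to 3.34) and Slc3a2 (-0.59 to -0.01) do not.

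The 2 shallow libraries were then left out, which leaves 2 knockouts and 2 controls. On the log2 scale Slc7a11 then differed by 0.94 (SE 0.36; edgeR adjusted p = 0.603), Aifm2 1.79 (SE 0.69; edgeR adjusted p = 0.611) and Slc3a2 -0.30 (SE 0.13; edgeR adjusted p = 0.699). These 3 of 10 had an unadjusted p under 0.05, against 6.99% of all genes in that fit, and 0 were called after adjustment. Groups did not overlap for 5 of the 10 there, against 36.7% of all genes.

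**Figure D4:**
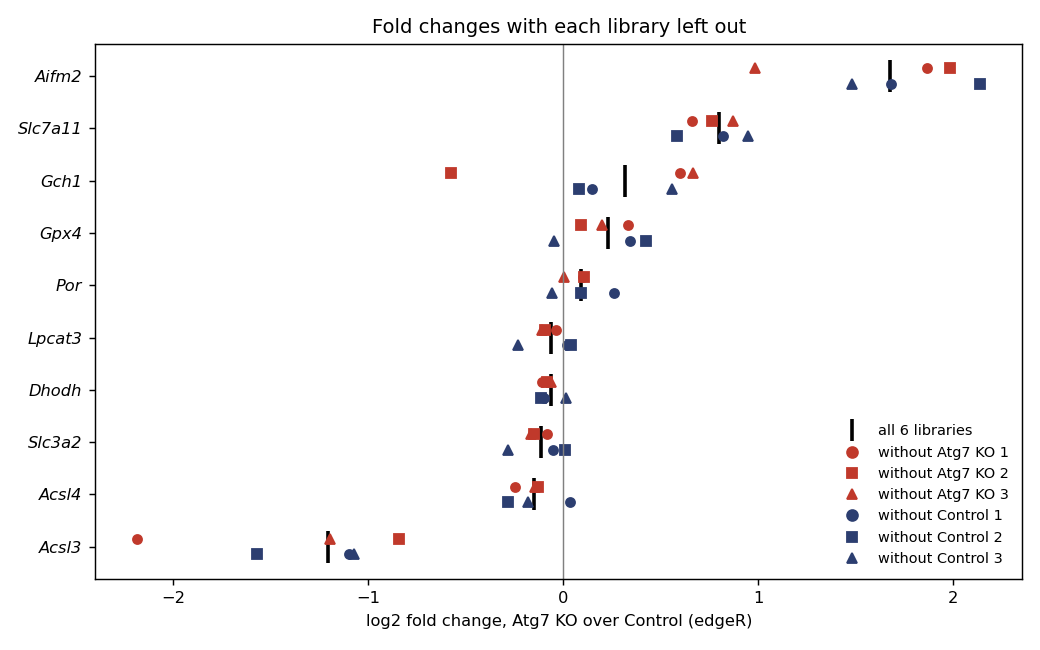
Log2 fold changes of the 10 genes, Atg7 knockout over control, with each library left out in turn. Slc7a11 (0.59 to 0.95), Aifm2 (0.98 to 2.14) and Acsl3 (-2.19 to -0.84) keep their sign; the other 7 cross 0.

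Per kilobase of exon, the importer's heavy chain was the most abundant of the 10 in both groups. Slc3a2 had 127 ± 7.56 CPM per kb in knockouts and 137 ± 28.2 in controls, and Lpcat3 91.5 ± 4.85 in knockouts and 95.3 ± 19.5 in controls (SD, n = 3 each). Gpx4 followed, then Por and Acsl4, whose ranges overlapped in both groups. Dhodh was at 4.74 ± 0.15 CPM per kb in knockouts and 5.01 ± 0.61 in controls (SD, n = 3 each). Slc7a11 was at 0.728 ± 0.105 in knockouts and 0.437 ± 0.125 in controls on that scale, far below its partner. In knockouts Lpcat3 overlapped Gpx4, and Slc7a11, Aifm2 and Gch1 each overlapped the next in that order, which ended with Acsl3. In controls Slc3a2 overlapped Lpcat3, Lpcat3 overlapped Gpx4 and Gpx4 overlapped Acsl4. The lowest genes there were in the order Slc7a11, Acsl3, Gch1 and Aifm2, each overlapping the next.

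**Figure D5:**
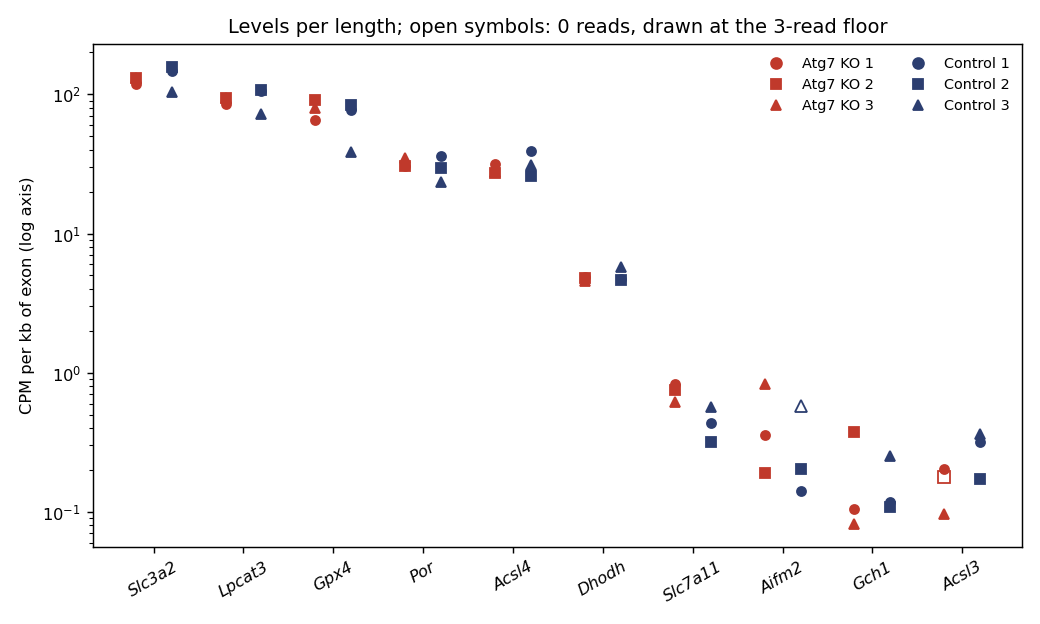
Levels of the 10 genes per kilobase of exon (CPM per kb, log axis), Atg7 knockouts left of controls; open symbols mark libraries with 0 reads, drawn at the 3-read floor. Slc3a2, Lpcat3, Gpx4, Por and Acsl4 lie far above Slc7a11, Aifm2, Gch1 and Acsl3, with Dhodh between.

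For the 6 members that averaged above 20 CPM in both groups, coefficients of variation among mice were 3.25 to 16.7% in knockouts and 12.2 to 36.6% in controls, a difference that was not tested. Control 3 was the lowest of the 6 libraries in 4 of them: Lpcat3, Por, Slc3a2 and Gpx4.

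Around the 10 genes, 5 lists of other pathway genes were examined, 85 genes of which 73 were tested. With edgeR, 0 had an adjusted p under 0.05, and likewise 0 with DESeq2 and limma voom. At an unadjusted edgeR p under 0.05, 2 were higher and 2 lower, against 2.34% and 1.98% of all genes. Groups did not overlap for 7 that were higher and 2 that were lower, against 6.59% and 4.47% of all genes. The genes given from each list are among the 3 with its smallest p; their edgeR adjusted p was 0.999 except where another is printed. Of the 73, 39 had a log2 fold change above 0, and their median was 0.03.

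In polyunsaturated and ether lipid supply, 17 of 19 genes were tested, 10 above 0 and 7 below, with a median of 0.03. Acsl1, another acyl-CoA synthetase, averaged 51.3 CPM in knockouts and 72.5 CPM in controls (log2 fold change -0.49, SE 0.21). That fold change was -0.33 without knockout 2 and -0.22 without both shallow libraries. Fads1, a fatty acid desaturase, averaged 64.2 CPM in knockouts and 84.2 CPM in controls, a log2 fold change of -0.40 (-0.20 without control 2). Scd1, which makes monounsaturated fatty acids, was near the detection limit. It had 31, 11 and 46 reads in knockouts, against 27, 17 and 0 in controls. It averaged 1.97 CPM in knockouts and 0.389 CPM in controls. Its log2 fold change was 1.90 (SE 0.91, 95% interval -0.04 to 3.84), and 1.37 without both shallow libraries.

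Among enzymes that peroxidise lipids, 6 of 10 were tested, 5 above 0, with a median of 0.43. Alox5, the arachidonate 5-lipoxygenase, had 178.5 to 238 CPM in the 3 knockouts, against 129 to 143 CPM in the 3 controls. Every knockout lay above every control, and the log2 fold change was 0.58 (SE 0.16; edgeR adjusted p = 0.447). Cybb, the catalytic subunit of the phagocyte NADPH oxidase, had 128, 61.3 and 45.8 CPM in knockouts, against 19.5, 42.1 and 48.7 CPM in controls. Its log2 fold change was 1.13, and 0.55 without knockout 1. Within each group its libraries had the order of the neutrophil sums, the monocyte sums and the border-associated macrophage sums without Stab1. The part of those cells was not tested. Cyb5r1, an oxidoreductase that can act like Por, averaged 88.2 CPM in knockouts and 73.1 CPM in controls, a log2 fold change of 0.27 (0.14 without knockout 3). Alox15, named after its values were seen, had too few reads to test, 25 over all knockouts and 12 over all controls.

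In cystine, glutathione and selenoprotein supply, 20 of 22 genes were tested, 11 above 0 and 9 below, with a median of 0.04. Slc38a1, a glutamine transporter, had 68.0, 49.9 and 63.5 CPM in knockouts, against 84.3, 86.3 and 99.8 CPM in controls. Every knockout lay below every control (log2 fold change -0.57, SE 0.18; edgeR adjusted p = 0.699). Txn1 (thioredoxin) averaged 34.8 CPM in knockouts and 25.8 CPM in controls, a log2 fold change of 0.41. Sephs2, which makes the selenium donor for selenoproteins such as Gpx4, averaged 29.3 CPM in knockouts and 40.6 CPM in controls, a log2 fold change of -0.46 (-0.27 without knockout 2 and -0.28 without control 1); 36.4% of its exonic bases are shared with Gm44729 on the opposite strand.

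In quinone and tetrahydrobiopterin defence, 18 of 20 genes were tested, 8 above 0 and 10 below, with a median of -0.03. Pdss2, of coenzyme Q synthesis, averaged 6.85 CPM in knockouts and 10.8 CPM in controls, a log2 fold change of -0.58 (-0.28 without control 3). Stard7, a lipid transfer protein that carries coenzyme Q, averaged 22.3 CPM in knockouts and 15.3 CPM in controls, a log2 fold change of 0.45 (0.28 without knockout 1 and 0.17 without control 3). Among regulators, 12 of 14 genes were tested, 5 above 0 and 7 below, with a median of -0.05. Atf3, a stress-induced transcription factor, had 18.8, 28.8 and 20.3 CPM in knockouts, against 18.0, 13.2 and 11.0 CPM in controls, with no overlap (log2 fold change 0.63, SE 0.28, and 0.42 without knockout 2). Sat1, of polyamine breakdown, averaged 689 CPM in knockouts and 586 CPM in controls, a log2 fold change of 0.23 (0.15 without control 3). Zeb1, a transcription factor, averaged 20.6 CPM in knockouts and 26.9 CPM in controls, a log2 fold change of -0.34 (-0.51 without control 2 and -0.10 without control 3).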

How the data were processed

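The authors deposited raw read counts per gene as whole numbers, with no normalization. Tools listed in the submitters' processing notes are STAR, featureCounts, Subread, Salmon and bcl2fastq, with the build GRCm39; which of them made the counts, with which annotation and strand setting, is not given. The table had 55774 rows; 287 with a repeated identifier were dropped. The labels' protocols mention no molecular identifiers, so intervals and floors cover counting error only. Depth was 1254380 to 39389527 reads per library.

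Genes were filtered with filterByExpr (minimum count 10, minimum total 15), scaled by TMM and tested with edgeR 4.0.16 in R 4.3.3 (robust quasi-likelihood F-test, all 6 libraries, no covariates), with Benjamini-Hochberg adjustment over all 15787 genes and a threshold of 0.05. Fold changes are unshrunk. Alternatives used DESeq2 1.42.0, limma 3.58.1, other scalings and filters, a replicate block, and left-out libraries. Ratios were tested with exact permutation. Exon lengths come from GENCODE M21 (GRCm38), matched by identifier. The code was tested on simulated data.

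Replicates are separate mice per the labels. The members and lists were chosen with earlier results of these data known. Genes named from each pathway list were the 3 with the smallest p, except 1 that is not reported here; any other is said to be chosen after its value was seen. The Acsl4 to Acsl3 ratio was planned on plain reads, but knockout 2 had 0 Acsl3 reads, so the floor of 3 reads was used there.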

Additional observations from a re-analysis of the deposited data

How the results depend on the processing

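Of the 10 members, 0 were called under every alternative run; the smallest adjusted p of any was 0.284 (Slc7a11, limma voom). Against 7 genes called over the whole table, there were 102 with no filter, 83 with DESeq2, 15 with limma voom, 4 with voom library weights, 2 without robust fitting, 25 with the replicate block, 39 without both shallow libraries, and 2 to 50 with 1 library left out (50 without control 3). With no filter 1 pathway gene was called, Cybb (adjusted p = 0.0267). Members whose groups did not overlap numbered 1 to 3 of 10 with 1 library left out, against 18.5 to 23.2% of all genes, and 5 of 10 without both shallow libraries (Aifm2, Gch1, Lpcat3, Slc3a2, Slc7a11), against 36.7% of all genes.

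Over 157 alternatives for members, 140 kept their direction and side of the threshold and 17 changed sign, all within values that were not called. Por was -0.021 with voom library weights and -0.022 without both shallow libraries. Gpx4 was -0.024 with voom and -0.16 without both, Gch1 -0.076 with voom and -0.28 without both, and Dhodh 0.015 with voom, 0.013 with library weights and 0.017 without both. With 1 library left out the log2 fold changes ran from -0.29 to 0.032 for Acsl4, -0.23 to 0.041 for Lpcat3, -0.060 to 0.26 for Por, -0.28 to 0.0066 for Slc3a2, -0.047 to 0.43 for Gpx4, -0.58 to 0.66 for Gch1 and -0.11 to 0.015 for Dhodh. The cause was not tested. With 1 library left out the log2 ratio differences ran from 0.40 to 0.88 for Acsl4 to Acsl3 and 0.50 to 1.25 for Slc7a11 to Slc3a2. The Atg7 call was lost without robust fitting (edgeR adjusted p = 0.0660). The stricter filter removed Acsl3, Aifm2 and Gch1.

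Replicate numbers are shared between groups. Same-numbered libraries had deviation correlations of 0.585, -0.446 and -0.0152 over 9593 genes. The 2 shallow libraries, knockout 2 and control 3, had 0.576 though their numbers differ. With 3 mice per group, this check cannot decide whether the numbers pair the samples. With the replicate block, 0 members were called. Depth limits Acsl3, Aifm2 and Gch1 most, since 3 reads in control 3 correspond to 2.36 CPM.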
